A study of Mus musculus with 12 samples.

Results

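Macrophage-like cells that had received hypochlorous acid (HOCl) at 100 µM were compared directly with cells that had received 20 µM, over every gene expressed in either group. A gene was taken as expressed when its FPKM (fragments counted on the gene, scaled to its exon length and to the library's size) reached 1 in 3 or more of the 6 libraries, which held for 11568 of the 28977 gene IDs in the table. The cells were J774A.1, a mouse macrophage-like line grown in serum-containing medium. Each of the 4 groups of the study had 3 libraries: untreated cells in cell media, a vehicle group exposed to HBSS, a salt solution, with 0 µM HOCl, and a 20 µM and a 100 µM group exposed to HOCl dissolved in HBSS. Exposure lasted 1 h and all cells then spent 24 h in full medium before RNA was taken, so both groups compared here shared the HBSS step, the recovery period and the unmodified line. Sublethal as well as lethal doses were intended, without a statement of which dose is which. Nothing in the labels says that replicates were separate cultures, so the p-values below measure only the spread between these samples.

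HOCl is made by myeloperoxidase, an enzyme of neutrophil granules, from hydrogen peroxide and chloride. It reacts fastest with the sulphur atoms of cysteine and methionine, and cells answer such oxidants through NRF2, which drives antioxidant genes, and through the integrated stress response, in which phosphorylation of eIF2α slows translation and raises the transcription factor ATF4. ATF4 and its target CHOP (gene Ddit3) switch on amino acid transport and synthesis. The title of the series names mitophagy, the removal of mitochondria by autophagy.

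The 6 libraries were not cleanly divided by dose. Their FPKM rested on 19549694 to 21343428 reads at 20 µM and 17736499 to 18811910 at 100 µM, so every 100 µM library was shallower than every 20 µM library, and the part of depth in the results was not tested. On the component that held 53.8% of their variance, the 20 µM libraries scored -18.52, -10.72 and 1.565 and the 100 µM libraries -3.558, 11.49 and 19.75, so that 20 µM replicate 3 and 100 µM replicate 1 crossed. Pearson correlations of log2(FPKM + 1) were 0.9875 to 0.9941 within 20 µM, 0.9884 to 0.9923 within 100 µM and 0.9784 to 0.9938 between the doses. Differences also moved with exon length. Across 11475 genes, which share these 6 libraries and are not independent, the log2 difference between the doses correlated with exon length at a Spearman rho of -0.441, and its median went from 0.109 in the fifth of genes with the shortest exon length to -0.13 in the fifth with the longest. Within single libraries the correlation with length was 0.411 and 0.371 in 20 µM replicates 1 and 2, 0.0674 and 0.0571 in 20 µM replicate 3 and 100 µM replicate 1, and -0.357 and -0.428 in 100 µM replicates 2 and 3. The part of exon length in the results was not tested as a cause. Many, but not all, gene groups below are also given with the length trend of every library removed. A group without that value is not thereby free of the trend. Of 22 macrophage markers 20 were expressed, with a summed FPKM of 5757 to 5923 at 20 µM and 6227 to 6859 at 100 µM. In bulk libraries fewer cells of a type and less RNA per cell cannot be told apart. Markers of the other 7 cell types listed summed to at most 17.86 FPKM in any of the 6 libraries, in neutrophil genes, among which S100a8 was the most abundant and S100a9 was at 0. The neutrophil sum itself was separated by dose, at 12.52 to 13.66 FPKM at 20 µM and 15.75 to 17.86 FPKM at 100 µM. S100a8 was at 10.98, 10.73 and 12.01 FPKM against 13.9, 16.4 and 16.3 FPKM, which gave a log2 difference of 0.43 (SE 0.08) and an adjusted p of 0.173 in limma. The part of these genes in other results was not tested.

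**Figure D1:**
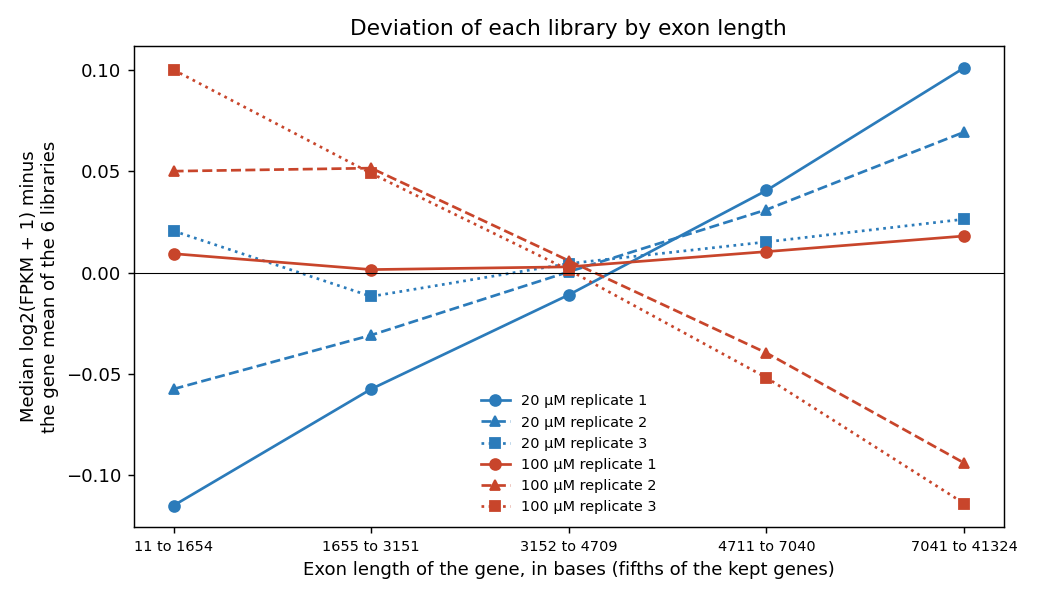
Median deviation of each of the 6 libraries from the gene mean (vertical axis, log2(FPKM + 1)) in 5 equal bins of the kept genes by exon length in bases (horizontal axis), with 1 line per library. The 20 µM replicates 1 and 2 slope upward, the 100 µM replicates 2 and 3 slope downward, and 20 µM replicate 3 and 100 µM replicate 1 are nearly level.

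A single gene passed the main test between the doses, which did not pair the libraries. With limma on log2(FPKM + 1) and Benjamini-Hochberg adjustment, 1 of 11568 genes (0.00864%) had an adjusted p under 0.05, the pseudogene Gm10241, which was lower at 100 µM, and no gene was called higher. At an unadjusted p under 0.05 limma gave 2877 genes (24.9%), of which 1252 (10.8%) were higher and 1625 (14.0%) lower at 100 µM. In 3335 genes (28.8%) all 3 libraries of one dose lay on the same side of all 3 of the other. These are called separated below: 1512 (13.1%) were separated with 100 µM higher and 1823 (15.8%) with 100 µM lower. Percentages of separated genes in the lists below stand against these shares. The count of calls turned on 100 µM replicate 1, the library nearest to the 20 µM group. Without it limma called 1025 genes (8.86%), 349 higher (3.02%) and 676 lower (5.84%), and all 1025 had the direction they had with all 6 libraries. Calls from this fit are no separate support, since the library left out was the one nearest to 20 µM. The 100 µM libraries kept in it had the strongest downward relation to exon length, and it was not run with the length trend removed. Without 100 µM replicate 2 no gene was called, and without 20 µM replicate 1 or 3 the count was 2. With the replicate number as a block limma called 1173 of 11568 genes, and 1 once the length trend was also removed. Whether the replicate numbers pair the samples is not stated. Because genes other than Gm10241 did not pass the main test, they are described below by their values in each library.

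**Figure D2:**
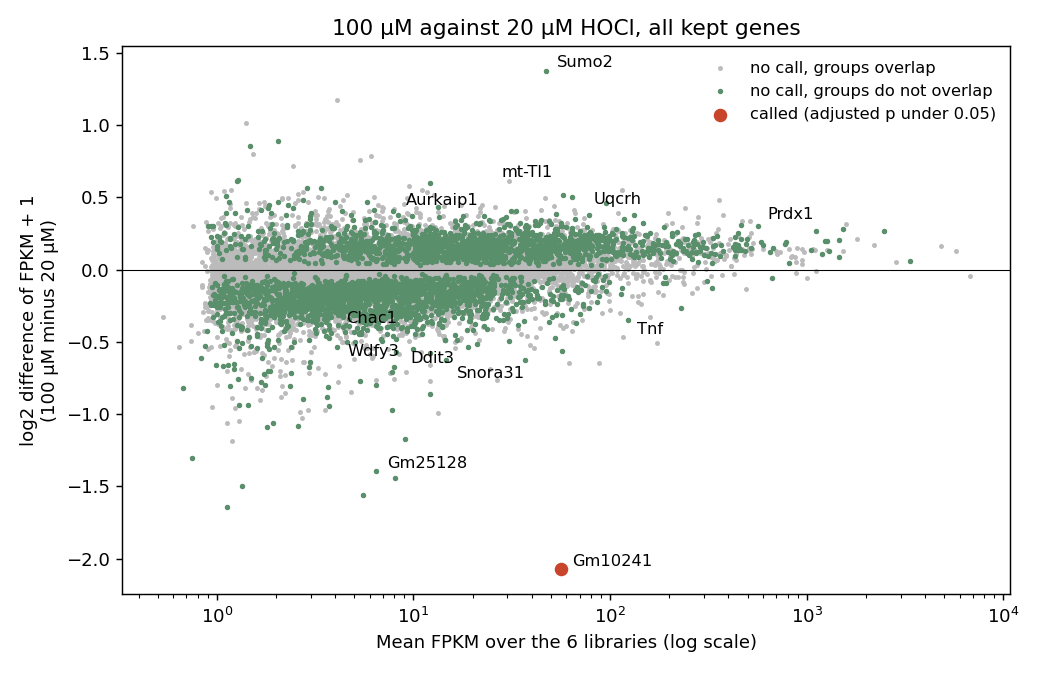
Mean FPKM of each kept gene over the 6 libraries (horizontal, log scale) against its log2 difference between 100 µM and 20 µM (vertical). Grey points are genes whose groups overlap, green points the 3335 whose groups are separated, and the red point is Gm10241, the 1 called gene, at -2.08. Sumo2 stands highest at 1.38.

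The highest and the lowest log2 difference of all expressed genes belonged to a gene and its copy. Sumo2 encodes a small ubiquitin-like protein that is attached to other proteins, and is known for being conjugated widely under heat and oxidative stress. Gm10241 is annotated as a processed pseudogene on chromosome 16 and Sumo2 lies on chromosome 11. Over its whole 286 bases Gm10241 is 100% identical to the Sumo2 transcript, covering transcript bases 159 to 444, which are all but the last 2 bases of the 288-base coding sequence. The first 90 bases of this shared stretch, given as GENCODE M21 has them and with no capitals since no base differs, show what a read inside it would match in both genes.
Gm10241 and Sumo2: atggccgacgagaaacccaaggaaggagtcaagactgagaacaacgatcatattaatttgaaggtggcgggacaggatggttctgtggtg

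Gm10241 was at 80.1, 103 and 92.5 FPKM in the 3 libraries at 20 µM and at 23.05, 20.7 and 19.2 FPKM at 100 µM. All 3 libraries at 100 µM were far below all 3 at 20 µM. The mean fell 4.38-fold, a log2 difference of -2.08 (SE 0.10, 95% interval -2.32 to -1.83), with an adjusted p of 0.00388 in limma, and leaving out 1 library gave -2.17 to -1.99. The call was lost without 100 µM replicate 2 (limma adjusted p 0.0819). It was also lost in fits that held the HBSS libraries, where limma adjusted p values of 0.12 and up to 0.239 were reached. HBSS libraries were at 92.6, 76.9 and 34.6 FPKM, so the vehicle replicates themselves spread from the 20 µM range to near that of 100 µM.

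Sumo2 showed the opposite order, at 27.3, 21.0 and 29.6 FPKM at 20 µM and 61.8, 70.9 and 72.6 FPKM at 100 µM. The groups did not overlap, and the log2 difference was 1.38 (SE 0.13, limma adjusted p 0.067, above the threshold). In HBSS it was at 20.7, 37.6 and 57.4 FPKM, again covering most of the gap between the doses.

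In reads, Gm10241 made up 32.6%, 44.7% and 34.0% of the reads of the pair at 20 µM and 5.79%, 4.59% and 4.18% at 100 µM. It made up 42.5%, 25.2% and 9.04% in the HBSS libraries. The division of reads between the 2 genes therefore differed between the doses, and also between replicates of the vehicle. Sumo2 summed with its annotated copies (10 with at least 95% identity over at least 200 bases, of which 9 were in the table) had 1484, 1471 and 1606 reads at 20 µM and 2212, 2335 and 2510 at 100 µM. The sum was higher in 3 of 3 libraries at 100 µM, with a log2 difference of 0.77 (SE 0.08) and a limma adjusted p of 0.0882, and with the copies summed no gene of the table was called. Values of either gene alone are uncertain, since the counting could place the same read in either.

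**Figure D3:**
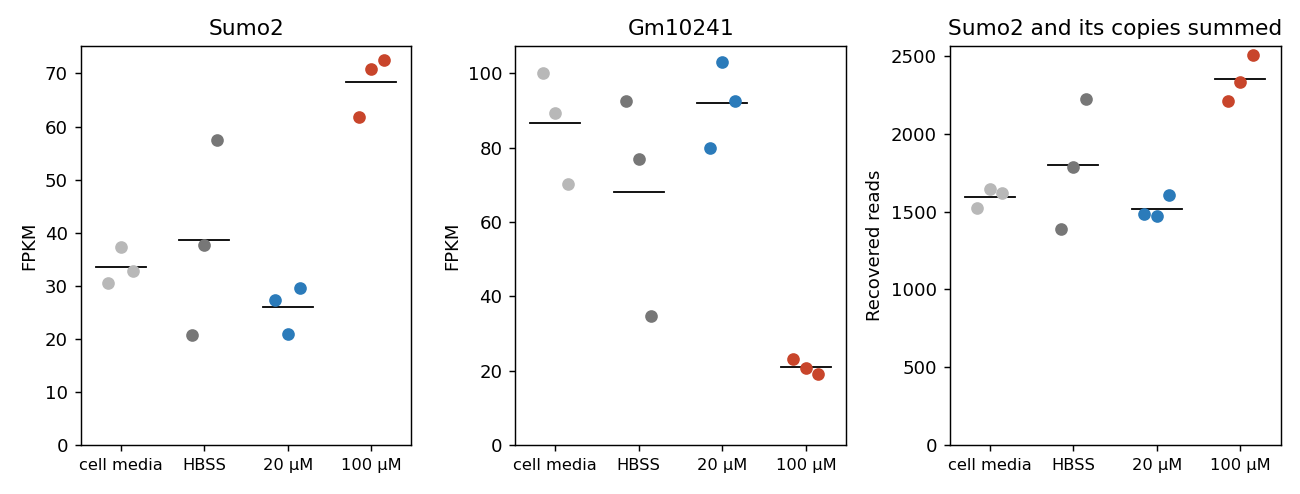
FPKM of Sumo2 (left) and Gm10241 (middle) and recovered reads of Sumo2 summed with its copies (right), in the 3 libraries of each of the 4 groups, with bars at the means. At 100 µM Sumo2 lies at 61.8 to 72.6 and Gm10241 at 19.2 to 23.05, while the 3 HBSS libraries are widely spread in all 3 panels.

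Genes of the ATF4-CHOP arm stood lower at 100 µM than at 20 µM. Of 19 listed genes 17 were expressed, 16 of them were lower, 8 were separated with 100 µM lower (47.1%, against 15.8% of all genes) and 1 was separated with 100 µM higher. The median log2 difference was -0.27, beside -0.0132 over all genes, and it was -0.22 with the length trend removed and -0.28 after quantile normalization. Genes of amino acid synthesis, transport and tRNA charging ran the same way: 27 of 28 were lower, 8 were separated with 100 µM lower (28.6%), and the median was -0.20 (-0.13 with the length trend removed, -0.13 without 20 µM replicate 1 and -0.12 without 100 µM replicate 2). None of these passed the limma test. Without 100 µM replicate 1 limma called 1 ATF4-CHOP gene (5.88%) and 2 amino acid genes (7.14%) lower, near the 5.84% of all genes called lower in that fit.

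The promoters of 3 of these genes are shown for the element that C/EBP and ATF proteins bind, whose core was searched as TGATGNAA on both strands in 300 bases around each start site. The stretches below are from RefSeq on GRCm38.p6, 5′ to 3′ on the gene's strand, with matches in capitals (matches on the other strand appear as the reverse complement). Slc7a11 is at chr3:50443627-50443706 on the minus strand, Chac1 at chr2:119351013-119351092 on the plus strand and Asns at chr6:7693210-7693289 on the minus strand.
Slc7a11: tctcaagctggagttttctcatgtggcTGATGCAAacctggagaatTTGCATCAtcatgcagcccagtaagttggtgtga
Chac1: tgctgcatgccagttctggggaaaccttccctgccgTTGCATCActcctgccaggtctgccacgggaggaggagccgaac
Asns: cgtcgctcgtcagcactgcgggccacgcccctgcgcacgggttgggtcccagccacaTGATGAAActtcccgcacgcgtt

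The motif was found in 6 of 16 ATF4-CHOP genes (37.5%) and in 8 of 20 amino acid genes (40.0%) that had a promoter in the table. It was in 224 of 8006 expressed genes (2.8%) and in 1219 of all 27025 promoters (4.51%). A match describes these letters only, and both lists hold genes known as ATF4 targets.

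Ddit3, which encodes CHOP, was at 26.6, 22.2 and 19.6 FPKM at 20 µM and at 16.1, 14.2 and 15.7 FPKM at 100 µM. The lowest 20 µM library was above the highest 100 µM library, with a log2 difference of -0.54 (SE 0.11, limma adjusted p 0.173). The HBSS libraries, at 26.5, 24.0 and 22.6 FPKM, lay in or near the 20 µM range. Chac1, a glutathione-degrading enzyme, was at 11.1, 11.8 and 10.4 FPKM at 20 µM and 8.57, 7.03 and 9.22 FPKM at 100 µM (log2 difference -0.39, SE 0.10). Its HBSS libraries, at 9.84, 14.1 and 16.2 FPKM, lay on both sides of the 20 µM range and above all of those at 100 µM. Slc7a11, the cystine importer that feeds glutathione synthesis, was at 7.74, 8.16 and 7.66 FPKM at 20 µM and 6.40, 5.69 and 5.87 FPKM at 100 µM (log2 difference -0.34, SE 0.06). Its exons are long, and with the length trend removed the difference was -0.17.

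Atf4 itself was at 258, 258 and 237 FPKM at 20 µM and at 213, 192 and 223 FPKM at 100 µM, separated, with a log2 difference of -0.26 (SE 0.07). Its HBSS libraries, at 266, 214 and 224 FPKM, spread from above the 20 µM range into that of 100 µM. Ddit4, an inhibitor of mTORC1 signalling, was separated by a small margin, at 16.0, 15.2 and 13.6 FPKM against 13.5, 10.9 and 11.9 FPKM. Not every target was separated. Asns, asparagine synthetase, was at 117, 111 and 91.9 FPKM against 99.9, 83.9 and 90.3 FPKM, and Trib3, a pseudokinase that restrains ATF4, at 92.6, 83.0 and 67.5 FPKM against 74.1, 52.9 and 63.7 FPKM, so both overlapped. The amino acid transporters Slc38a2, Slc7a1 and Slc7a5 were separated. Slc38a2, for neutral amino acids, was at 64.6, 64.0 and 60.2 FPKM against 53.8, 46.0 and 52.1 FPKM, and Slc7a1, for cationic amino acids, at 27.9, 26.5 and 24.1 FPKM against 23.7, 18.8 and 19.5 FPKM. Both have long exons, and their log2 differences of -0.31 and -0.33 were -0.19 and -0.18 with the length trend removed. Slc7a5, for large neutral amino acids, had a log2 difference of -0.27 (SE 0.09), and Xpot, which exports tRNA from the nucleus, -0.21 (SE 0.07), each separated.

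**Figure D4:**
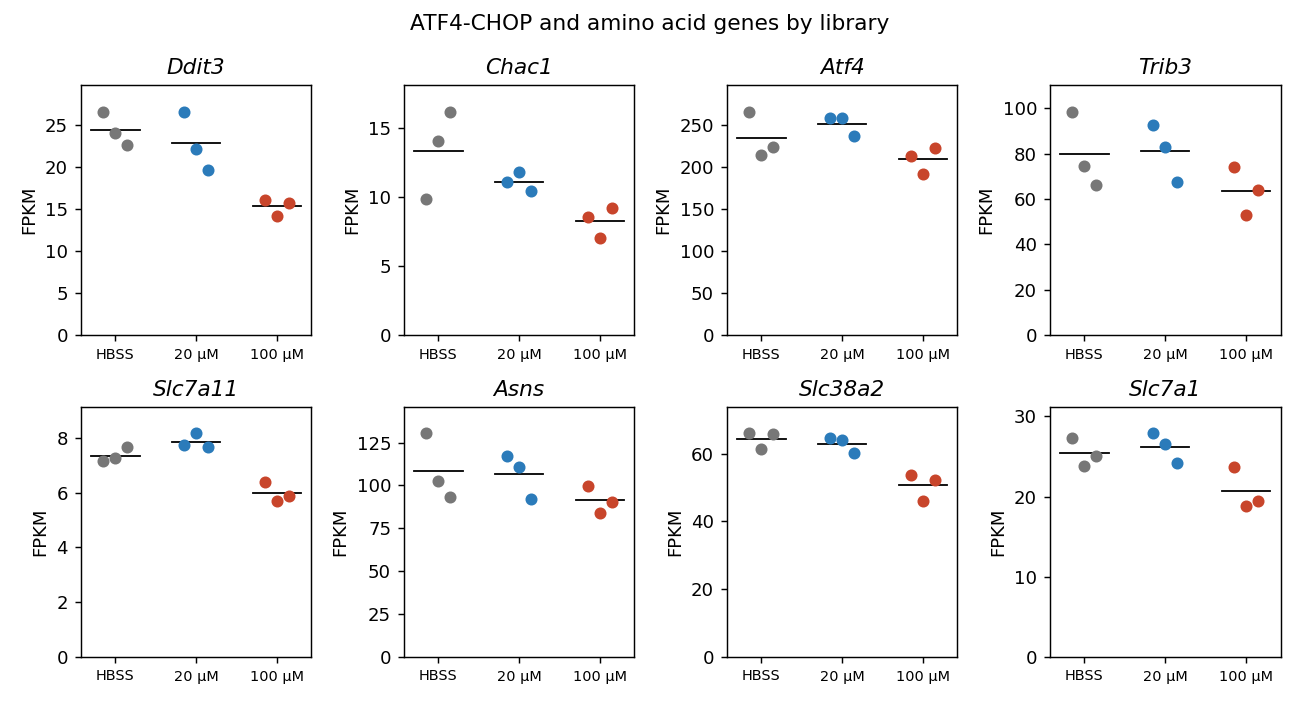
FPKM of 8 genes of the ATF4-CHOP and amino acid lists in the 3 libraries each of HBSS, 20 µM and 100 µM, with bars at the means and axes from 0. The 100 µM libraries lie below all 20 µM libraries in each panel except those of Trib3 and Asns, where the groups overlap. The HBSS libraries of Atf4 spread from above the 20 µM range into that of 100 µM.

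Nuclear genes of the respiratory chain stood higher at 100 µM. Complex I takes electrons from NADH, complexes II to IV pass them to oxygen, and complex V makes ATP. All 41 nuclear genes of complexes II to V were higher at 100 µM, 28 of them separated (68.3%, against 13.1% of all genes), with a median log2 difference of 0.19. Of 35 expressed complex I genes 33 were higher and 19 were separated (54.3%), with a median of 0.18. These genes are short, with median exon lengths of 1831 and 1569 bases against 3894 over all genes. Among all genes of 1655 to 3151 bases 556 of 2295 were separated higher, and among those of up to 1654 bases 363 of 2296. With the length trend removed the median log2 differences of the 2 lists were 0.15 and 0.13, and after quantile normalization 0.11 and 0.12. In complexes II to V the library medians were -0.15, -0.09 and -0.03 at 20 µM and 0.0017, 0.15 and 0.14 at 100 µM, so replicate 1 at 100 µM lay nearer to 20 µM replicate 3 than to its own group. None was called in limma with all 6 libraries. Without 100 µM replicate 1 limma called 13 of complexes II to V (31.7%) and 9 of complex I (25.7%), all higher, against 3.02% of all genes called higher in that fit. That fit was not run with the length trend removed, so the part of exon length in these calls was not tested.

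Uqcrh, the hinge subunit of complex III, had the largest difference of the nuclear respiratory genes, at 47.5, 49.7 and 60.9 FPKM at 20 µM and 67.1, 82.1 and 76.0 FPKM at 100 µM, a log2 difference of 0.51 (SE 0.11, limma adjusted p 0.173). The groups did not overlap, and the HBSS libraries, at 48.7, 61.2 and 59.6 FPKM, lay with those at 20 µM. The ATP synthase gene Atp5h was at 84.6, 88.4 and 84.7 FPKM against 94.0, 108 and 107 FPKM. For cytochrome oxidase, Cox6c was at 44.4, 46.8 and 48.7 FPKM against 52.3, 55.5 and 53.3 FPKM. Cox7b and Cox6b1, of the same complex, had log2 differences of 0.22 and 0.25 and were separated too. In complex I, Ndufb11 was at 32.3, 34.6 and 35.7 FPKM against 40.8, 39.1 and 41.0 FPKM, and Ndufc2, Ndufs5 and Ndufv2 differed by 0.23, 0.24 and 0.19. Ndufb4 overlapped, with a log2 difference of 0.04 (SE 0.07) that turned to -0.03 with the length trend removed.

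The 13 genes encoded by mitochondrial DNA, which supply the core subunits of the same complexes, gave no such separation. None had separated groups, 8 were higher, and their median of 0.11 was 0 after quantile normalization, 0.05 with the length trend removed and -0.02 without 100 µM replicate 3, and it was 0.06 and 0.04 without 20 µM replicate 1 or 2. It was larger, at 0.22, with the GC trend removed, and 0.16, 0.15 and 0.14 without 20 µM replicate 3, 100 µM replicate 1 or 100 µM replicate 2. Thus mt-Nd1 was at 4331, 4515 and 4731 FPKM at 20 µM and 4604, 5021 and 5619 FPKM at 100 µM beside 5321, 5053 and 5425 FPKM in HBSS. mt-Cytb was at 5202, 5501 and 5751 FPKM against 5534, 5863 and 6591 FPKM. mt-Co3 was the most scattered, at 58.5, 73.9 and 158 FPKM against 114, 111 and 174 FPKM. Mitochondrial ribosomal proteins, which translate these mRNAs but come from the nucleus, followed the nuclear subunits: 72 of 77 were higher, 33 were separated (42.9%), and the median of 0.13 was 0.12 with the length trend removed. Mrpl41 was at 20.1, 21.2 and 22.98 FPKM against 25.3, 29.2 and 27.6 FPKM (log2 difference 0.34, SE 0.07), and Mrpl36, Mrps26 and Mrpl55 differed by 0.26, 0.26 and 0.23. Aurkaip1, which also belongs to the mitochondrial ribosome, was even at 21.1 FPKM in all 3 libraries at 20 µM and was at 26.0, 27.5 and 27.7 FPKM at 100 µM, with a limma adjusted p of 0.13.

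Mitochondrial import and quality control genes were mostly higher (22 of 30, median 0.05), with 7 separated higher (23.3%, against 13.1% of all genes) and 1 lower (3.33%, against 15.8%). The small import chaperone Timm8b was at 78.8, 84.7 and 87.7 FPKM against 96.1, 108 and 104 FPKM. The inner membrane scaffold Phb, which is counted in the mitophagy list below and not in this one, was at 45.7, 48.2 and 47.4 FPKM against 53.6, 59.1 and 56.6 FPKM. The binding element of NRF1, a regulator of nuclear respiratory genes, was searched as GCGCA and GCGC with 1 base between them, on both strands. It was in the promoters of 7 of 31 complex I genes (22.6%), 11 of 32 genes of complexes II to V (34.4%) and 13 of 68 mitochondrial ribosomal protein genes (19.1%), beside 1048 of 8006 expressed genes (13.1%) and 1402 of all 27025 promoters (5.19%).

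The mitophagy genes named in the title of the series were divided in direction between the doses. In mitophagy, PINK1 accumulates on damaged mitochondria and marks them with phosphorylated ubiquitin, receptors such as BNIP3 and FKBP8 and adaptors such as p62 (Sqstm1) tie them to the growing autophagosome through LC3 and GABARAP proteins, and lysosomes digest them. Of 49 expressed core genes 23 were higher and 26 lower. In this list 10 were separated higher (20.4%, against 13.1% of all genes) and 8 lower (16.3%, near the 15.8% of all genes). At an unadjusted p under 0.05 limma gave 13 higher (26.5%, against 10.8% of all genes) and 3 lower (6.12%, against 14.0%). Their median of -0.0031 turned to 0.01 under median-of-ratios scaling, 0.04 once the length trend and 0.03 once the GC trend was taken out, and lay between -0.01 (without 20 µM replicate 2) and 0.03 (without 20 µM replicate 3) when 1 library was left out. Pink1 was at 4.68, 4.42 and 4.13 FPKM at 20 µM and 5.81, 4.96 and 5.51 FPKM at 100 µM, a log2 difference of 0.25 (SE 0.07, limma adjusted p 0.173). It was separated, while HBSS replicate 1, at 5.85 FPKM, was above all 3 libraries at 100 µM. Phb, given above, also belongs to this list and was separated higher (log2 difference 0.26, SE 0.05).

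Among the receptors, Bnip3 overlapped, at 15.4, 14.2 and 12.9 FPKM against 17.4, 14.6 and 15.7 FPKM. Fkbp8 was separated, at 57.5, 58.1 and 60.4 FPKM against 62.6, 65.5 and 66.6 FPKM. Gabarap and Map1lc3b, which coat the autophagosome membrane, were separated with log2 differences of 0.16 (SE 0.04) and 0.15 (SE 0.05). Sqstm1 overlapped in the other direction, at 205, 187 and 166 FPKM against 174, 154 and 171 FPKM. In the autophagosome machinery 21 of 32 genes were lower, and the median of -0.04 turned to 0.0074 after quantile normalization and 0.0061 with the length trend removed. It was -0.08 without 100 µM replicate 1, and -0.02, -0.02 and -0.03 without 20 µM replicate 2, 100 µM replicate 2 or 100 µM replicate 3. Wdfy3, a large scaffold for the clearance of aggregates and mitochondria, was at 13.5, 11.6 and 10.6 FPKM against 9.94, 6.75 and 6.97 FPKM (log2 difference -0.55, SE 0.15), and with the length trend removed the difference was -0.36. Of 45 expressed lysosome genes 29 were higher, 16 separated higher (35.6%, against 13.1% of all genes) and 4 lower (8.89%, against 15.8%). Their median of 0.04 turned to -0.03 after quantile normalization. Subunits of the proton pump were the separated members with the smallest p: Atp6v0b, Atp6v0e, Atp6v1e1 and Atp6v1f differed by 0.15, 0.21, 0.17 and 0.15.

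**Figure D5:**
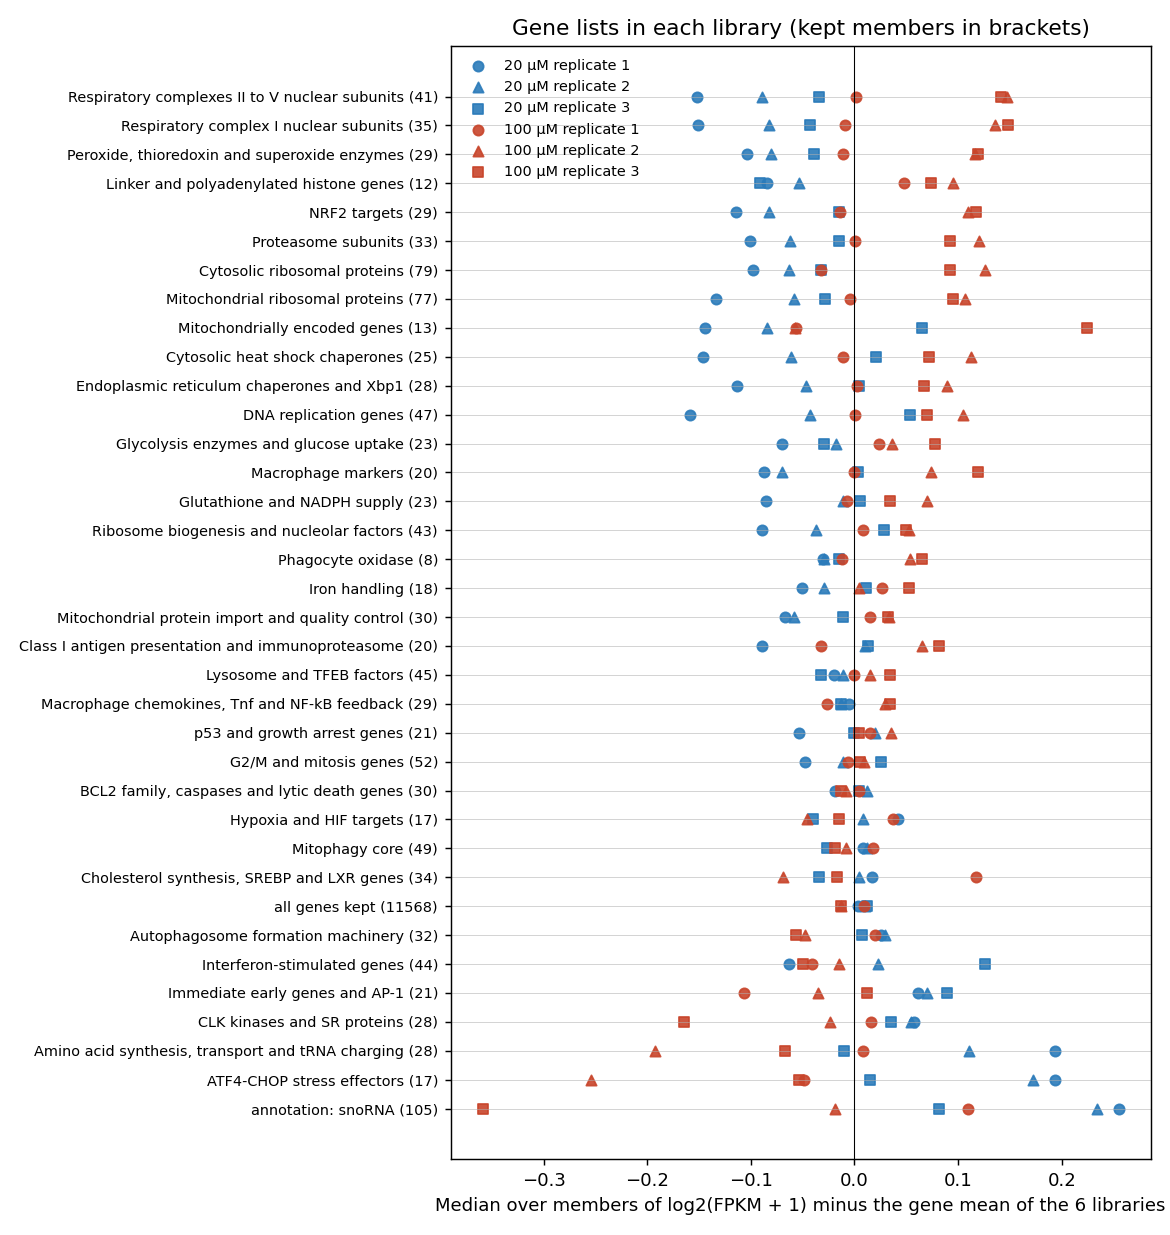
Median deviation of each gene list in each of the 6 libraries (horizontal axis, log2(FPKM + 1) minus the gene mean), with the number of kept members in brackets and lists ordered by the median difference between the doses. Respiratory, peroxide, ribosomal and proteasome lists run from 20 µM replicate 1 on the left to 100 µM replicates 2 and 3 on the right, the ATF4-CHOP and amino acid lists run the other way, and 100 µM replicate 1 lies near 0 in the respiratory lists.

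Enzymes that remove peroxides stood higher at 100 µM. Peroxiredoxins reduce hydrogen peroxide with electrons from thioredoxin, and glutathione peroxidases do so with glutathione. Of 29 expressed genes of the peroxide, thioredoxin and superoxide list 26 were higher and 15 were separated, all of them higher (51.7%, against 13.1% of all genes). The median of 0.15 was also 0.15 with the length trend removed and was 0.11 after quantile normalization. Without 100 µM replicate 1 limma called 9 of them higher (31.0%, against 3.02% of all genes), in a fit not run with the length trend removed. Prdx1 was at 488, 514 and 521 FPKM at 20 µM and at 571, 674 and 639 FPKM at 100 µM (log2 difference 0.30, SE 0.07). It was at 489, 517 and 473 FPKM in HBSS, so the HBSS and 20 µM levels lay together below 100 µM. Mgst3, a membrane glutathione peroxidase and transferase, was at 14.2, 16.1 and 15.4 FPKM against 17.5, 20.0 and 21.2 FPKM. Gpx4, which reduces lipid peroxides, differed by 0.21 (SE 0.05), Prdx5 by 0.21 (SE 0.06) and the superoxide dismutase Sod1 by 0.26 (SE 0.08), each separated.

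Among NRF2 targets 23 of 29 were higher, 8 were separated higher (27.6%) and 3 lower (10.3%), with a median of 0.14 (0.12 with the length trend removed). Prdx1 and Slc7a11, given above, also belong to this list, the former separated higher and the latter lower. Gstm1, a glutathione transferase, was at 14.5, 14.1 and 15.7 FPKM against 16.7, 19.0 and 19.8 FPKM, and Taldo1, of the pentose phosphate pathway, at 183, 186 and 200 FPKM against 206, 232 and 233 FPKM. The heme oxygenase gene Hmox1 overlapped, at 77.8, 90.4 and 112 FPKM against 99.0, 129 and 111 FPKM. Srxn1, which repairs overoxidized peroxiredoxin, overlapped with a log2 difference of 0.05 that turned to -0.01 after quantile normalization. Gclm, a subunit of the enzyme that starts glutathione synthesis, differed by 0.03 (SE 0.07), which turned to -0.03 without 100 µM replicate 2 and to -0.0051 without 20 µM replicate 1. Mafk, a binding partner of NRF2, was lower, at 6.43, 6.34 and 6.39 FPKM against 5.46, 5.26 and 5.21 FPKM. In glutathione and NADPH supply 16 of 23 genes were higher (median 0.07, and 0.02 or 0.03 without 20 µM replicate 1 or 100 µM replicate 2). In that list 6 were separated higher (26.1%, against 13.1% of all genes) and 3 lower (13.0%, against 15.8%). The NADPH-producing Idh1 was among the higher ones, at 74.6, 72.9 and 76.8 FPKM against 82.0, 84.8 and 86.1 FPKM. Slc7a11 and Chac1, given above, also belong to it and were separated lower. Of 18 iron genes 12 were higher (median 0.06). Ireb2, which senses iron, was lower, at 14.4, 13.8 and 12.7 FPKM against 12.6, 11.4 and 10.6 FPKM. Its log2 difference of -0.23 was -0.10 with the length trend removed. The phagocyte oxidase, the source of superoxide in macrophages, gave 6 of 8 genes higher, and its median of 0.06 turned to -0.01 after quantile normalization. Its catalytic subunit Cybb was among the lower ones (log2 difference -0.14, SE 0.06) and its partner Cyba among the higher (0.18, SE 0.08).

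Protein synthesis and breakdown genes were shifted by small amounts. Of 79 expressed cytosolic ribosomal protein genes 73 were higher and 27 were separated higher (34.2%). Their median of 0.13 was 0.07 with the length trend removed and 0.0094 after quantile normalization, and these genes have many pseudogene copies, so their values are uncertain. Rps12 was at 96.7, 95.02 and 98.0 FPKM against 117, 112 and 124 FPKM (log2 difference 0.28, SE 0.05). Proteasome subunits, which form the barrel and cap that degrade ubiquitin-tagged proteins, together with their regulator Nfe2l1 made up a list of 33 genes, of which 32 were higher and 20 separated (60.6%), with a median of 0.14 (0.11 with the length trend removed, 0.07 after quantile normalization). Psma7 was at 95.4, 94.9 and 96.5 FPKM against 106, 112 and 111 FPKM. Psma4, Psmb6 and Psmc4 differed by 0.21, 0.17 and 0.17. The lowest value of that list, -0.28 (SE 0.11), was that of Nfe2l1, the factor known to drive proteasome genes, at 122, 111 and 97.8 FPKM against 100, 79.8 and 91.7 FPKM.

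Of 25 expressed cytosolic chaperone genes 23 were higher, but only 3 were separated (12%), near the 13.1% of all genes, and the median of 0.11 was 0.03 after quantile normalization, 0.07 without 20 µM replicate 1 and 0.17 without 20 µM replicate 3. The HSP90 activator Ahsa1 was at 47.6, 50.3 and 53.4 FPKM against 54.2, 59.6 and 60.8 FPKM. Cct5, of the chaperonin, differed by 0.11 (SE 0.04), which turned to -0.0094 after quantile normalization. Endoplasmic reticulum chaperones and translocation genes were higher in 21 of 28, with 9 separated higher (32.1%, against 13.1% of all genes) and 1 lower (3.57%, against 15.8%; median 0.11, 0.04 after quantile normalization). Sec61g, of the channel through which new proteins enter the endoplasmic reticulum, was at 16.1, 16.5 and 17.5 FPKM against 18.1, 23.1 and 21.4 FPKM, and Ssr4 and Dnajb11 differed by 0.22 and 0.23. In ribosome biogenesis 29 of 43 genes were higher, with 9 separated higher (20.9%, against 13.1% of all genes) and 4 lower (9.30%, against 15.8%). The median of 0.06 was 0.04 without 20 µM replicate 1, 0.04 without 100 µM replicate 2 and 0.03 after quantile normalization.

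Inflammatory and immediate early genes divided. Immediate early genes are transcribed within minutes of a stimulus, and 15 of 21 expressed ones were lower at 100 µM, 6 of them separated (28.6%), with none separated higher. Their median was -0.07, and it was -0.13 with the length trend removed and -0.11 without 100 µM replicate 3. Jun, an AP-1 subunit, was at 31.4, 32.5 and 36.4 FPKM at 20 µM and 25.5, 26.3 and 26.8 FPKM at 100 µM (log2 difference -0.34, SE 0.06). HBSS libraries were at 36.3, 29.0 and 31.3 FPKM, above all of those at 100 µM. Klf6 was at 62.6, 62.0 and 60.8 FPKM against 55.1, 53.2 and 55.2 FPKM, while its HBSS libraries, at 77.7, 47.6 and 49.0 FPKM, lay above and below both ranges. Ptgs2, the inducible cyclooxygenase, was at 11.4, 11.5 and 9.53 FPKM against 8.84, 7.98 and 8.96 FPKM. The cytokine gene Tnf was at 130, 143 and 143 FPKM against 101, 112 and 114 FPKM (log2 difference -0.35, SE 0.06). Its HBSS values of 111, 137 and 155 FPKM reached into both ranges.

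Of 29 chemokine and NF-kB genes 15 were higher and 14 lower, with 8 separated higher (27.6%, against 13.1% of all genes) and 6 lower (20.7%, against 15.8%). The median of 0.04 turned to -0.0047 after quantile normalization, and was 0.0080, 0.07 and 0.02 without 20 µM replicate 3, 100 µM replicate 1 or 100 µM replicate 3. The monocyte attractant Ccl7 was at 66.6, 67.6 and 69.7 FPKM against 79.0, 99.9 and 87.9 FPKM (log2 difference 0.38, SE 0.08), the opposite direction to Tnf. Ccl9 was at 390, 412 and 423 FPKM against 454, 526 and 482 FPKM. Interferon-stimulated genes were lower in 29 of 44, and 11 were separated lower (25%, against 15.8% of all genes) and 1 higher (2.27%, against 13.1%). Their median of -0.05 was -0.10 without 20 µM replicate 1, -0.01 without 20 µM replicate 3 and -0.02 without 100 µM replicate 1. Oas2, a sensor of double-stranded RNA, was at 4.43, 3.96 and 4.79 FPKM against 3.15, 3.22 and 2.78 FPKM. Oas3 and Oas1g, of the same family, differed by -0.32 (SE 0.07) and -0.24 (SE 0.07); Oas1g has close copies, and its value is uncertain. Ifi203 was at 9.65, 9.22 and 9.30 FPKM against 7.81, 7.63 and 7.71 FPKM, and Slfn8 differed by -0.24. Trim56, an antiviral ubiquitin ligase, was at 6.85, 6.72 and 6.29 FPKM against 5.33, 4.74 and 4.58 FPKM. In class I antigen presentation 12 of 20 genes were higher (median 0.05, which was 0.0031 with the length trend removed and 0.02 to 0.07 with 1 library left out, lowest without 20 µM replicate 1 and highest without 100 µM replicate 1). H2-T23, a nonclassical class I molecule, was lower, at 6.98, 7.25 and 7.52 FPKM against 5.19, 5.95 and 5.89 FPKM (class I genes resemble each other, so the value is uncertain), while the immunoproteasome genes Psmb8 and Psmb10 differed by 0.21 and 0.25.

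Macrophage markers were higher in 17 of 20 genes, 6 of them separated (30.0%, against 13.1% of all genes). Their median of 0.09 was 0.01 after quantile normalization and 0.05 without 100 µM replicate 3. Lyz2, lysozyme, was at 2202, 2255 and 2293 FPKM against 2515, 2740 and 2892 FPKM. Cd14, the co-receptor for lipopolysaccharide, was at 303, 312 and 329 FPKM against 339, 354 and 365 FPKM, and Fcgr3, an antibody receptor, at 30.5, 30.8 and 27.3 FPKM against 35.6, 35.4 and 37.6 FPKM. Tmem176b and Ninj1, of macrophage membranes, were among the genes with the smallest p. Tmem176b was at 25.4, 26.6 and 28.0 FPKM against 32.9, 37.3 and 36.8 FPKM (log2 difference 0.40, SE 0.06), and Ninj1, which drives plasma membrane rupture in lytic death, at 52.5, 50.8 and 49.4 FPKM against 61.2, 64.9 and 63.1 FPKM (0.30, SE 0.04).

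Death and cell cycle genes showed no common direction. Among BCL2 family, caspase and lytic death genes 15 of 30 were higher and 15 lower. In each direction 4 were separated (13.3%), near the 13.1% of all genes separated higher and the 15.8% separated lower. The proapoptotic Bad was at 6.68, 7.86 and 7.72 FPKM against 8.50, 10.6 and 9.74 FPKM, and Bax at 48.8, 53.5 and 52.1 FPKM against 57.1, 63.1 and 63.0 FPKM. Cflar, an inhibitor of caspase-8, was at 19.2, 17.3 and 14.5 FPKM against 14.3, 11.2 and 10.3 FPKM (log2 difference -0.49, SE 0.14), which was -0.32 with the length trend removed. Of p53 and growth arrest genes 12 of 21 were higher, with 4 separated higher (19.0%, against 13.1% of all genes) and 6 lower (28.6%, against 15.8%). Ccng1, a p53 target, was at 54.4, 58.7 and 59.1 FPKM against 66.3, 71.0 and 68.1 FPKM. Gadd45g stood higher as well (0.41, SE 0.11). Plk2, a stress-induced kinase, was at 57.6, 54.5 and 53.5 FPKM against 44.4, 39.7 and 44.3 FPKM (-0.36, SE 0.06). Its HBSS libraries, at 63.3, 40.9 and 39.0 FPKM, spread from above the 20 µM range to below that of 100 µM. Btg2 differed by -0.23 (SE 0.08).

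DNA replication genes were higher in 39 of 47, 9 of them separated higher (19.1%) and 1 lower (2.13%), with a median of 0.10 that was 0.06 without 20 µM replicate 1. Pcna, the sliding clamp of DNA polymerase, was at 211, 234 and 242 FPKM against 251, 279 and 266 FPKM. Mcm7, of the replicative helicase, was at 32.4, 36.7 and 38.8 FPKM against 39.3, 42.3 and 42.8 FPKM. Mitosis genes did not follow: 29 of 52 were higher, 6 were separated higher (11.5%, against 13.1% of all genes) and 11 lower (21.2%, against 15.8%). Their median exon length was 4919 bases, and of the 2294 genes of 4711 to 7040 bases 184 were separated higher and 529 lower. The share separated lower is thus not set apart from genes of like length. The median log2 difference of the mitosis genes, 0.01, was 0.04 with the length trend removed and 0.04 without 20 µM replicate 3, and turned to -0.0099 without 20 µM replicate 1. The kinetochore genes Knl1, at 10.7, 10.8 and 10.5 FPKM against 9.22, 7.94 and 7.98 FPKM, and Cenpe, at 25.7, 25.4 and 25.6 FPKM against 21.7, 19.5 and 22.8 FPKM, were lower. Their log2 differences of -0.31 and -0.25 were -0.20 and -0.14 with the length trend removed. Linker and polyadenylated histone genes were higher in 9 of 12, and 7 were separated higher (58.3%, against 13.1% of all genes) and 1 lower (8.33%, against 15.8%). Hist1h1c, a linker histone, was at 35.5, 33.2 and 33.4 FPKM against 43.9, 40.9 and 40.3 FPKM. H2afz and H2afj differed by 0.16 and 0.22, and histone genes have close copies that make single values uncertain.

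Metabolic lists were mixed. Of 23 glycolysis genes 17 were higher, 8 separated higher (34.8%, against 13.1% of all genes) and 2 lower (8.7%, against 15.8%). Their median of 0.10 was 0.02 after quantile normalization and 0.06 without 20 µM replicate 1. Tpi1 was at 440, 457 and 482 FPKM against 506, 544 and 546 FPKM, and Ldha and Pkm both differed by 0.18 (SE 0.05). The entry enzyme Hk2 ran the other way, at 36.5, 37.6 and 39.0 FPKM against 33.7, 32.3 and 30.7 FPKM. Cholesterol synthesis and sterol-regulated genes had 16 of 34 higher, and the median of -0.0074 turned to 0.0075 under median-of-ratios scaling, 0.05 without the length trend, 0.03 without the GC trend and 0.00091 after quantile normalization, and lay between -0.06 (without 100 µM replicate 1) and 0.03 (without 100 µM replicate 2) when 1 library was left out. Mvk, mevalonate kinase, was at 7.43, 6.74 and 6.94 FPKM against 8.84, 8.24 and 9.33 FPKM. Hypoxia targets had 8 of 17 higher, and their median of -0.0023 turned to 0.01 under median-of-ratios scaling, and lay between -0.05 (without 100 µM replicate 1) and 0.02 (without 100 µM replicate 2) when 1 library was left out.

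Splicing regulators stood lower. Of 28 CLK kinase and SR protein genes 22 were lower and 8 were separated lower (28.6%, against 15.8% of all genes), with none separated higher. In the fifth of all genes with the longest exons, from 7041 bases, 788 of 2294 were separated lower and 81 higher. The share of this list is thus not set apart from genes of like length. These genes are long (median 7140 bases), and their median of -0.10 was -0.01 with the length trend removed and -0.05 without 100 µM replicate 3. Clk1, a kinase of SR proteins, was at 10.2, 10.3 and 10.6 FPKM against 9.23, 8.27 and 7.95 FPKM, and Srrm2 at 61.0, 57.8 and 57.8 FPKM against 54.4, 46.3 and 41.7 FPKM. Their log2 differences of -0.26 and -0.31 were both -0.15 with the length trend removed. Rbm5 differed by -0.18 (SE 0.07), which turned to 0.0078 with the length trend removed. Srsf9 stood higher (0.19, SE 0.07).

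The 5 genes next in limma's order after Gm10241 were Sumo2, mt-Tl1, Gm25128, ENSMUSG00002076820 and Snora31, of which mt-Tl1, Gm25128 and Snora31 are small RNAs. ENSMUSG00002076820, which has no symbol here and is named only for its place in this order, averaged 0.746 FPKM (log2 difference -1.31, limma adjusted p 0.0711). The mitochondrial leucine tRNA mt-Tl1 was at 47.5, 48.7 and 45.7 FPKM at 20 µM and 70.9, 64.7 and 69.0 FPKM at 100 µM, a log2 difference of 0.52 (SE 0.05, limma adjusted p 0.067). HBSS libraries, at 57.9, 69.7 and 68.3 FPKM, lay above all 3 at 20 µM. It lies directly between mt-Rnr2 and mt-Nd1 on the mitochondrial genome, and reads from these neighbours could be counted to its 75 bases. The small nucleolar RNA Gm25128 was at 12.2, 8.63 and 8.75 FPKM against 3.50, 2.97 and 2.81 FPKM, a log2 difference of -1.40 (SE 0.13, limma adjusted p 0.067), and was at 6.76, 3.97 and 3.97 FPKM in HBSS. Its values rested on few reads, 19, 14 and 13 at 20 µM and 5, 4 and 4 at 100 µM. Snora31 was at 18.4, 18.4 and 16.9 FPKM against 12.3, 10.8 and 10.7 FPKM, a log2 difference of -0.63 (SE 0.07, limma adjusted p 0.0711). Its HBSS libraries, at 17.2, 8.13 and 10.4 FPKM, reached from the 20 µM range to below that of 100 µM. Snora31 lies inside Tpt1, whose reads could be counted to it.

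By annotation class, chosen after values had been seen, 85 of 105 expressed small nucleolar RNAs were lower, with 16 separated lower (15.2%, against 15.8% of all genes) and a median of -0.32. Their library medians were 0.26, 0.23 and 0.08 at 20 µM and 0.11, -0.02 and -0.36 at 100 µM, and without 100 µM replicate 3 the median was -0.16. With the length trend removed the median was -0.21. Of 91 small nuclear RNAs and miRNA genes 69 were lower (median -0.33, -0.22 with the length trend removed and -0.17 without 100 µM replicate 3). Kits for mRNA libraries are not made for such short RNAs. Processed pseudogenes went the other way, 698 of 964 higher (median 0.13), of which 73 were separated higher (7.57%), below the 13.1% of all genes. Leaving out 1 library gave 558 to 760 higher, with a median of 0.04 without 20 µM replicate 1, 0.07 without 100 µM replicate 3 and 0.20 without 20 µM replicate 3, and it was 0.06 with the length trend removed.

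The remaining genes with the smallest p in each direction were of varied function. Hlx, a homeobox factor, was at 9.002, 9.05 and 9.09 FPKM against 10.8, 10.9 and 11.1 FPKM. Rpp21, of the enzyme that matures tRNA, was at 10.4, 10.7 and 11.3 FPKM against 13.0, 14.1 and 13.5 FPKM. The noncoding AC166102.1 and the pseudogenes Gm5529 and Gm10177 differed by 0.33, 0.28 and 0.31. On the lower side, B4galt3, a galactosyltransferase, was at 9.66, 9.57 and 9.38 FPKM against 7.82, 7.37 and 7.73 FPKM. Zfp217, a zinc finger protein, was at 8.11, 8.65 and 9.04 FPKM against 6.43, 6.25 and 5.52 FPKM. Rusc2 and Zfp518a differed by -0.40 and -0.35. Their limma adjusted p was 0.173 in each case.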

How the data were processed

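Per the labels' protocols, J774A.1 libraries were made with an mRNA kit and sequenced on 2 kinds of instrument, without a record of which library ran on which. The authors deposited FPKM per gene. HISAT2, featureCounts and the GRCm39 build are named in the submitters' processing notes; their versions and the strand setting are not given in the sources used here. Symbols, lengths and GC content came from GENCODE M21 (GRCm38), for 28302 of 28977 IDs, and promoters from RefSeq (GRCm38.p6). FPKM below 1 lay on whole multiples of 1 read in 98.26% of values within 0.01 reads (2.0% by chance), which gave the reads behind them.

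The 3 libraries of each dose were compared with limma 3.58.1 in R 4.3.3 on log2(FPKM + 1), with a mean-variance trend, no covariate and two-sided tests, adjusted over 11568 genes at a threshold of 0.05. Differences are on this scale and understate changes of low genes. Length and GC trends were loess fits with a span of 0.5. The limma test, but not the removal of trends, was tried on simulated data. Named genes were the 12 per direction with the smallest p among separated genes averaging 5 FPKM or more (after the called gene), up to 4 members with the smallest p in each of 34 lists, and a panel of 22 genes, 162 in all. A result under this rule is not reported here. The gene set, lists and panel were chosen with earlier results of these data known. With 3 libraries against 3, no replicate pair was a duplicate: counts differed beyond sampling noise in every pair. Tables and plots used pandas 2.3.3, numpy 2.4.6 and matplotlib 3.10.9 under Python 3.11.15.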

Additional observations from a re-analysis of the deposited data

How the results depend on the processing

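Of 162 named genes, 154 kept their direction in each of the 24 alternatives that tested them (156 were tested at a mean of at least 5 FPKM and 161 with the Sumo2 copies summed). Lyz2, mt-Cytb and mt-Nd1 had a difference of 0 after quantile normalization. Those that turned were Cct5 (-0.0094) and Srxn1 (-0.0097) after quantile normalization, Gclm (-0.0051 and -0.028 when 20 µM replicate 1 or 100 µM replicate 2 was left out, in a range of -0.028 to 0.086 over single libraries left out), and, with the length trend removed with or without the block, Ndufb4 (-0.028) and Rbm5 (0.0078). The cause was not tested.

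Against 1 gene called (0 higher, 1 lower), limma called 0 with 9, 10 or 12 libraries (3117, 3118 and 454 at an unadjusted p under 0.05), 19 without a filter (3 higher, 16 lower), 5 at a mean of at least 5 FPKM (2 and 3), 2 after quantile normalization (0 and 2), 2 with the GC trend removed (1 and 1), 3 with limma-voom on recovered reads (1 and 2), 2 without a mean-variance trend (0 and 2) and 4227 with library weights (1792 and 2435), where 20 µM replicate 2 had a weight of 4.916 and 100 µM replicate 1 of 0.359. Summing Sumo2 with its copies, added after seeing the data, left 0 genes called (0 lower). Leaving out 1 library gave 0 to 1025 genes, 0 to 349 higher and 0 to 676 lower.

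With the replicate number as a block limma called 1173 genes (503 higher, 670 lower), all in the direction of the fit without it and 780 of them separated; with the block and the GC trend removed, added after seeing the data, 972 (503 and 469); with the block and the length trend removed, 1. Deviations of same-numbered libraries correlated at 0.4, 0.0513 and 0.438. Between 20 µM replicate 1 and 100 µM replicate 3 the value was -0.379, and between 20 µM replicate 3 and 100 µM replicate 1 it was -0.43. For 20 µM replicate 2 the highest value was 0.0932, with 100 µM replicate 1. These values do not settle whether the numbers pair the samples, and the main fit did not pair them. Every 100 µM library rested on fewer reads than every 20 µM library, and the part of depth was not tested. The SE of the log2 difference had a median of 0.0701.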
